A study of Homo sapiens with 15 samples.

Results

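The 51 interferon-stimulated genes described here were taken by symbol from the gene count table of 37787 genes, and all 51 were present and had enough counts to be tested. They were followed in HGrC1 cells, an immortalised human granulosa cell line, in 15 libraries that fall into 5 conditions of 3 libraries each. Vectors cells received empty plasmids, FOXL2WT cells received wild type FOXL2 with SMAD3, and FOXL2C134W cells received the FOXL2 form that carries the Cys-to-Trp change of adult granulosa cell tumours, also with SMAD3. The remaining conditions, FOXL2WT + FOXO1 and FOXL2C134W + FOXO1, received the same FOXL2 and SMAD3 plasmids together with FOXO1-3A, a form of FOXO1 that stays active. All conditions, Vectors included, used cells at passage 14 that were lipofected for 4 h in serum-free medium and cultured for a further 24 h without serum. None of the 5 conditions was untransfected. The overexpression was transient and the cells were 1 line, and the labels do not say whether the 3 libraries of a condition came from separate cultures, so the p-values measure the spread between these libraries.

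Interferons are secreted when a cell senses foreign or misplaced nucleic acid, and they act through cell surface receptors and JAK kinases on transcription factors that include STAT2 and IRF9. The complex these form binds the interferon-stimulated response element (ISRE), a repeat of GAAA in promoters, and so raises a common set of antiviral genes. Many of the same promoters are also bound by IRF3 and by IRF1, so that part of the set can also be raised by nucleic acid sensing directly.

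Promoter sequence was examined first, because the ISRE is what defines much of this gene set. Of the 51 members, 42 had an entry in the RefSeq promoter table (GRCh38.p14), and the 250 bases before the gene start were searched on both strands. The ISRE core, searched as GAAA, any 2 bases and GAAA again, or its reverse complement, was found upstream of 25 of the 42 members (59.5%), against 3.71% of the 27305 genes in the table. A match to these letters is a description of sequence and says nothing of whether a factor was bound. The 5 promoters below belong to members that were lower in FOXL2C134W than in Vectors and are shown because the capitals mark how the core is placed in each, on either strand, within 150 bases of the start.
ISG15: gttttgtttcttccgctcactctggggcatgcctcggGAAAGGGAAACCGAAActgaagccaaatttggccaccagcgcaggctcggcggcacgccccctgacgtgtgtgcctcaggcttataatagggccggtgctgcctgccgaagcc
IFIT1: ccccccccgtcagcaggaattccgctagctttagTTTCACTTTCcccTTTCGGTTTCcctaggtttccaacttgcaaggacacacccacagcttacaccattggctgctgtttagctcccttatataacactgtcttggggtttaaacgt
IFIT3: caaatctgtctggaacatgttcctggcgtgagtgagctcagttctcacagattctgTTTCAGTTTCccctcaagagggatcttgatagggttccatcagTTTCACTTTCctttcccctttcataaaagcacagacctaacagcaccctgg
HERC5: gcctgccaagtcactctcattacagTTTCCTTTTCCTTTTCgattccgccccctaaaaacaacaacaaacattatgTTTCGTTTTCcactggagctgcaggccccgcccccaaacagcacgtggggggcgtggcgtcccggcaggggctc
RSAD2: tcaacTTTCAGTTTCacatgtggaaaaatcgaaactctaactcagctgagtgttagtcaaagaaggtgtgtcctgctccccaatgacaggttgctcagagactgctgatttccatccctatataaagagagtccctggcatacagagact

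The next pair of promoters also holds the core, in members whose level in FOXL2C134W did not pass the test against Vectors.
IFITM3: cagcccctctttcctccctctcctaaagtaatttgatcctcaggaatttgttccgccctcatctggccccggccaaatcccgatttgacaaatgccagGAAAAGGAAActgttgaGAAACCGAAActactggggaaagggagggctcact
IFI44L: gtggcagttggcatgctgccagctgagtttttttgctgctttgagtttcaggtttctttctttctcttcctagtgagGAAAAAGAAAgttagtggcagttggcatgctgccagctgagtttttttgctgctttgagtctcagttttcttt

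These sequences lie on GRCh38.p14 at chr1:1013347-1013496 (ISG15), chr10:89392473-89392622 (IFIT1), chr10:89332379-89332528 (IFIT3), chr4:88456969-88457118 (HERC5), chr2:6877627-6877776 (RSAD2) and chr1:78620298-78620447 (IFI44L), all on the plus strand, and at chr11:320861-321010 on the minus strand (IFITM3). ISG15 and HERC5 hold overlapping copies of the core, and the first core base lies 113 and 107 bases before the start in ISG15 and 125, 119 and 74 bases before it in HERC5. In RSAD2 the only match lies 145 bases upstream, and in IFITM3 the matches lie 52 and 35 bases upstream. Where a gene has 2 RefSeq starts, as IFIT3, IFI27 and RSAD2 do, both were searched.

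**Figure D1:**
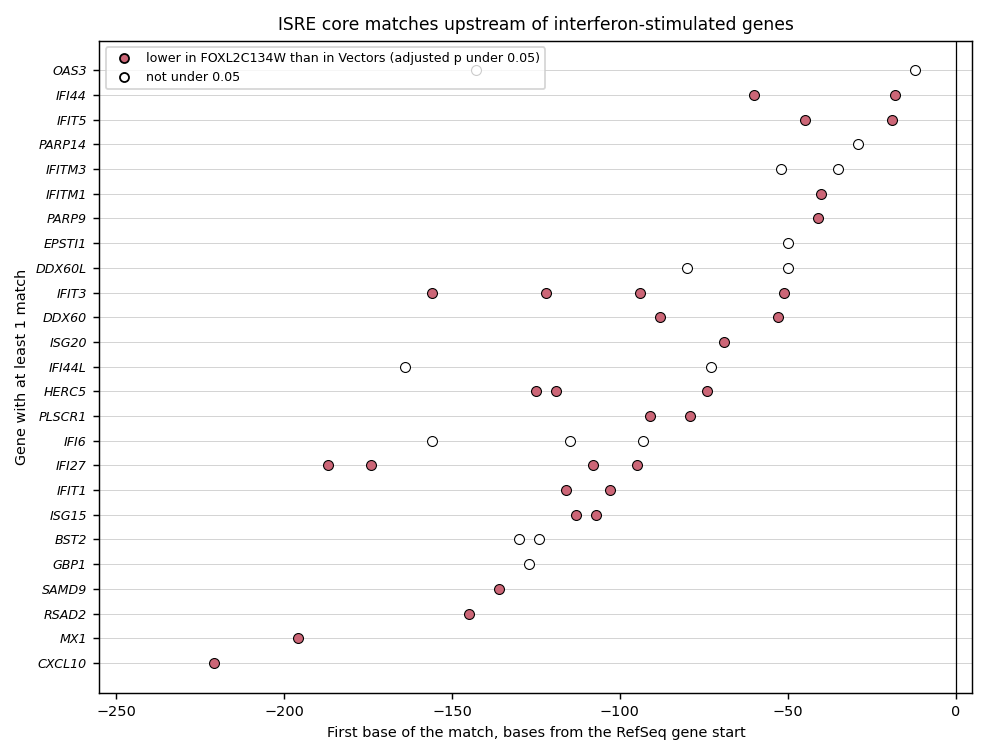
The horizontal axis gives the distance in bases from the RefSeq gene start to the first base of each ISRE core match, and each line is 1 of the 25 members with a match. Filled points mark the 16 members that were lower in FOXL2C134W than in Vectors and open points the 9 that did not pass the test, and both kinds are spread from near the start to beyond 100 bases upstream.

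Members with and without the core were both among those that fell. It was found in 16 of the 26 members with a promoter entry that were lower in FOXL2C134W than in Vectors and in 9 of the 16 that were not. The median log2 fold change of that comparison was -0.20 for members with the core and -0.25 for members without it. A binding sequence of NF-kappaB, searched as GGGA, any 3 bases and TCC, or its reverse complement, was found upstream of 7 members (16.7%) against 5.29% of all genes, and a forkhead sequence, GTAAACA or TGTTTAC, upstream of 2 members (4.76%, CMPK2 and SAMD9L) against 3.66%.

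Libraries held 14962245 to 25339094 estimated counts, and depth varied within conditions, with FOXL2WT + FOXO1 replicate A and FOXL2WT replicate B the shallowest (14962245 and 14992137). The members took 1.82% to 1.90% of the counts in Vectors, 1.70% to 1.73% in FOXL2WT, 1.51% to 1.60% in FOXL2C134W, 1.62% to 1.65% in FOXL2WT + FOXO1 and 1.56% to 1.63% in FOXL2C134W + FOXO1. The transfected genes were checked in every library. FOXL2 was at 8.28 to 9.54 CPM (counts scaled to library size by TMM) in Vectors, 554 to 566 in FOXL2WT, 121 to 175 in FOXL2C134W, 374 to 401 in FOXL2WT + FOXO1 and 139 to 176 in FOXL2C134W + FOXO1. SMAD3 was at 240 to 263 CPM in Vectors, at 2595 to 2889 in FOXL2WT and at 812 to 885 in FOXL2C134W, and at 957 to 976 and 379 to 411 in the FOXO1 conditions in the same order. FOXO1 was at 11.6 to 13.8 CPM in the 9 libraries without its plasmid, at 104 to 132 in FOXL2WT + FOXO1 and at 39.1 to 47.2 in FOXL2C134W + FOXO1. The plasmid transcript levels therefore differed between FOXL2WT and FOXL2C134W, and the FOXL2 form and the plasmid transcript level cannot be told apart in the comparisons below. At the protein level, the paper describes FOXL2WT, FOXL2C134W and FOXO1 as balanced, by immunoblot of cells cultured in parallel. It does not name SMAD3 there. Of 12 granulosa markers, 8 were tested, and 4 (AMHR2, FSHR, CYP19A1 and INHA) had at most 12 counts in every library. FSHR had no counts in any library, and CYP11A1, NR5A1, INHBA, AMH and STAR did not exceed 9.14 CPM. GATA4 and WT1 were present at higher levels in all. Of 8 immune markers, 6 had at most 12 counts in every library, and CD68 was the 1 at an appreciable level (88.7 to 117 CPM).

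The members were well expressed in these cells without any added interferon. Every library came from lipofected cells, so their level before transfection is not known. In TPM, a transcript level set per length and per library that allows genes to be compared, 27 of the 51 averaged over 100 TPM and 47 over 10 TPM across the 15 libraries. IFI27, a mitochondrial and nuclear membrane protein, averaged 5317 TPM, IFITM3, which blocks fusion of viral and cell membranes, 4459 TPM, IFI6 2368 TPM and ISG15, a ubiquitin-like modifier, 2048 TPM. The lowest were NEURL3, a ubiquitin ligase, at 1.32 TPM, CXCL11 at 1.74 TPM, CXCL10 at 4.04 TPM and GBP2 at 4.83 TPM. The members thus spanned a wide range of levels, and the ones with the largest changes were among the lowest.

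Most members lay lower in each transfection than in Vectors. The members' median difference from the Vectors mean, in log2-CPM, lay between -0.02 and 0.04 in the 3 Vectors libraries, between -0.11 and -0.08 in FOXL2WT, between -0.28 and -0.19 in FOXL2C134W, between -0.21 and -0.17 in FOXL2WT + FOXO1 and between -0.22 and -0.16 in FOXL2C134W + FOXO1. The same median over all 13868 genes tested lay between 0.00023 and 0.0021 in the 15 libraries. TMM scaling holds the median of all genes near 0, so here and below it is a reference point and not a result. The FOXL2WT libraries lay between Vectors and the other 3 conditions, which overlapped one another. The condition mean was highest in Vectors for 39 of the 51 members and lowest in FOXL2C134W for 28, in FOXL2WT + FOXO1 for 14 and in FOXL2C134W + FOXO1 for 6.

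**Figure D2:**
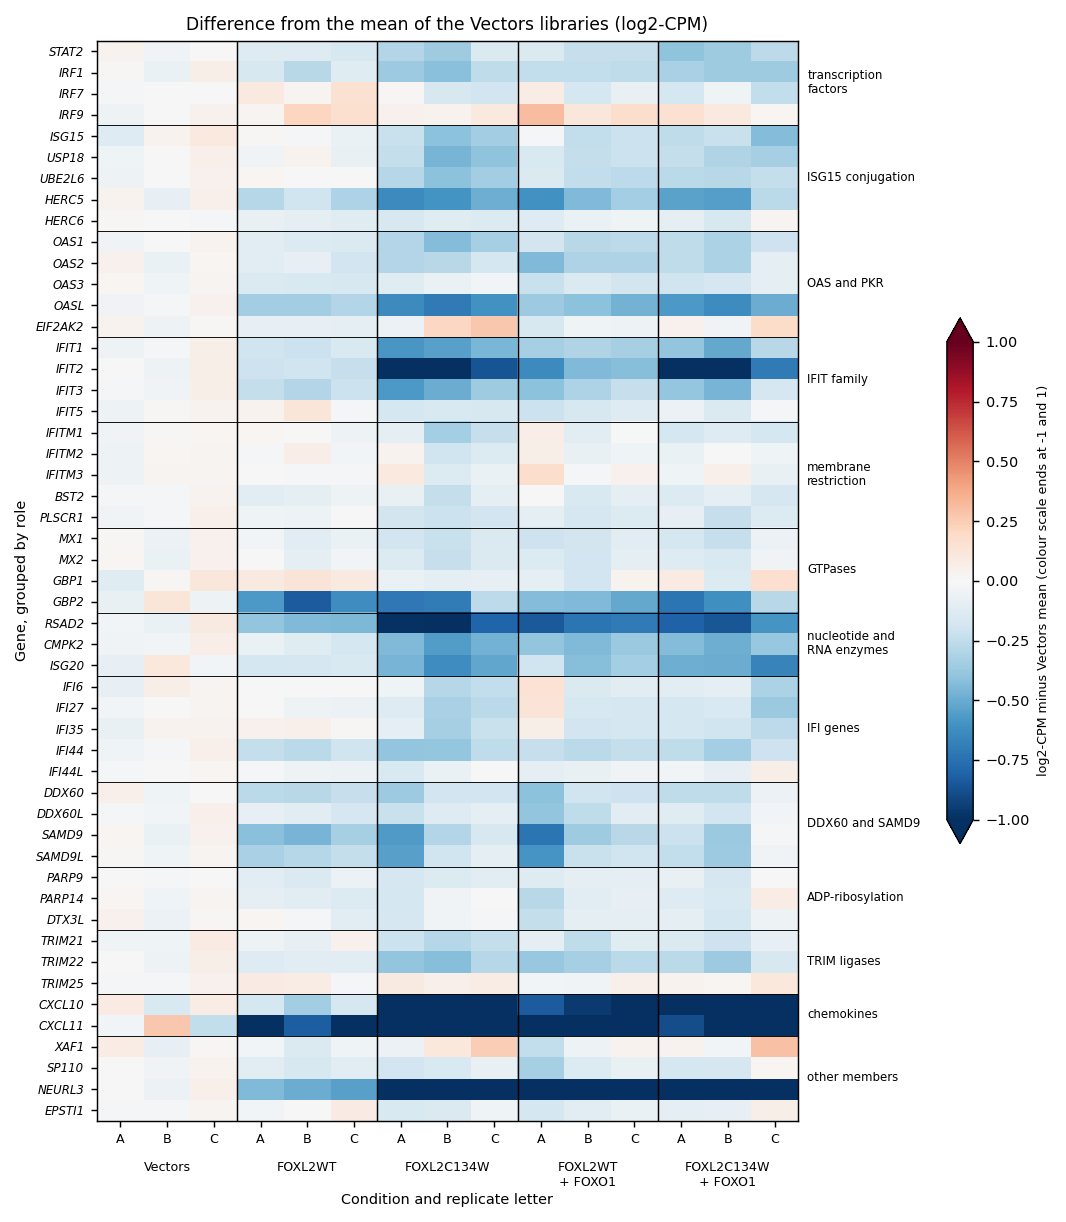
Each line is 1 of the 51 members, grouped by role, and each column 1 of the 15 libraries, with colour giving log2-CPM minus the mean of the Vectors libraries. Blue fills most of the 3 FOXL2C134W columns, where 45 to 47 members lay under the Vectors mean, and is palest in FOXL2WT, where 41 to 44 did.

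FOXL2C134W against Vectors, which asks what the mutant with SMAD3 did to these genes, gave the largest number of calls. In edgeR's quasi-likelihood test with Benjamini-Hochberg adjustment over all 13868 genes, 33 of the 51 members were lower at an adjusted p under 0.05 and 0 were higher, and 7.24% of all genes tested were lower by this rule. The 3 libraries of each condition did not overlap, with FOXL2C134W lower, for 38 members, against 16.1% of all genes. The members' median log2 fold change was -0.24, that of all genes was 0.0043, and 47 of 51 were below 0. The falls were mostly modest, with 10 members below -0.5 and 4 below -1 on the log2 scale. The list of members was chosen with earlier results of these data known. An excess over the share of all genes, here and below, therefore describes the list and is not independent support.

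Chemokines and NEURL3 fell the most, from low levels. NEURL3 was at 2.79, 2.67 and 2.88 CPM in Vectors, at 2.02, 1.95 and 1.88 in FOXL2WT and at 0.673, 0.878 and 0.507 in FOXL2C134W. It was at 1.28, 1.07 and 1.15 CPM in FOXL2WT + FOXO1 and at 0.646, 0.937 and 0.559 in FOXL2C134W + FOXO1. NEURL3 was 4.01-fold lower in FOXL2C134W than in Vectors (log2 fold change -2.00 ± 0.23 SE, edgeR adjusted p = 1.54e-05, n = 3 libraries each), and its 15 libraries held only 11 to 72 counts. The conditions did not overlap except that FOXL2C134W and FOXL2C134W + FOXO1 covered the same range.

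CXCL10, which draws T cells through CXCR3, was at 5.54, 4.70 and 5.52 CPM in Vectors, at 4.63, 4.09 and 4.66 in FOXL2WT and at 2.22, 1.67 and 2.49 in FOXL2C134W. It was at 2.89, 2.64 and 1.68 CPM in FOXL2WT + FOXO1 and at 1.48, 1.79 and 2.24 in FOXL2C134W + FOXO1, so that FOXL2WT lay just under Vectors while the other 3 conditions overlapped. CXCL10 was 2.48-fold lower in FOXL2C134W (log2 fold change -1.31 ± 0.19, edgeR adjusted p = 0.000122). CXCL11, a ligand of the same receptor, was at 2.75, 3.41 and 2.36 CPM in Vectors, at 1.01, 1.54 and 1.32 in FOXL2WT and at 1.11, 1.30 and 0.875 in FOXL2C134W. It was at 1.21, 1.25 and 1.11 CPM in FOXL2WT + FOXO1 and at 1.48, 0.895 and 1.33 in FOXL2C134W + FOXO1. Unlike CXCL10, it was already at its lower level in FOXL2WT, and its 4 transfections overlapped (FOXL2C134W against Vectors -1.36 ± 0.24, edgeR adjusted p = 0.00074). CXCL10 held 32 to 138 counts per library and CXCL11 18 to 69, so counting error limits the precision of both.

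**Figure D3:**
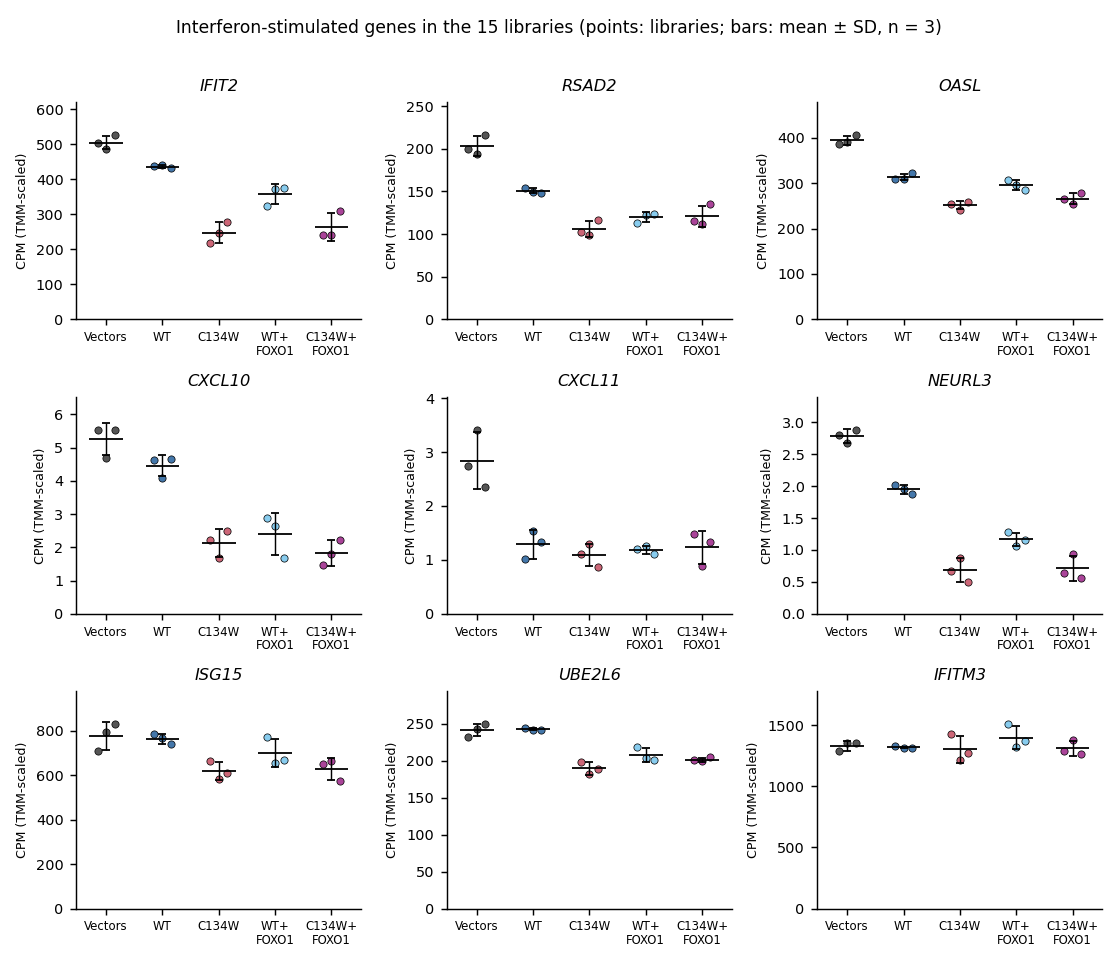
Points give TMM-scaled CPM of 9 members in the 15 libraries, on axes that start at 0, with bars for the mean ± SD of the 3 libraries of a condition. IFIT2, CXCL10 and NEURL3 drop between FOXL2WT and FOXL2C134W, CXCL11 is already low in FOXL2WT, ISG15 and UBE2L6 are as high in FOXL2WT as in Vectors, and IFITM3 stays between 1213 and 1508 CPM in all libraries.

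All 4 members of the antiviral IFIT family were lower in FOXL2C134W than in Vectors. IFIT2 was at 502, 486 and 526 CPM in Vectors, at 436, 440 and 431 in FOXL2WT and at 218, 247 and 278 in FOXL2C134W. It was at 325, 372 and 375 CPM in FOXL2WT + FOXO1 and at 241, 241 and 309 in FOXL2C134W + FOXO1. Every FOXL2C134W library was thus under every FOXL2WT + FOXO1 library, which in turn were under FOXL2WT, and IFIT2 was 2.04-fold lower in FOXL2C134W than in Vectors (log2 fold change -1.03 ± 0.09, edgeR adjusted p = 6.32e-07). IFIT1 was at 1127, 1153 and 1215 CPM in Vectors, at 1017, 1001 and 1049 in FOXL2WT and at 779, 798 and 848 in FOXL2C134W (FOXL2C134W against Vectors -0.53 ± 0.05). IFIT3 fell by 0.47 ± 0.07 and IFIT5 by 0.17 ± 0.04 on the log2 scale. The 4 genes lie in one cluster on chromosome 10, and their falls differed in size, with IFIT5 the smallest. Neither IFIT2 nor IFIT5 was called in FOXL2WT against Vectors.

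The enzymes that act on nucleotides and RNA all fell in FOXL2C134W. RSAD2 (viperin), which makes a chain-terminating nucleotide, was at 199, 194 and 216 CPM in Vectors, at 154, 150 and 148 in FOXL2WT and at 102, 99.4 and 116 in FOXL2C134W. It was at 113, 122 and 124 CPM in FOXL2WT + FOXO1 and at 115, 112 and 135 in FOXL2C134W + FOXO1. RSAD2 was 1.92-fold lower in FOXL2C134W than in Vectors (log2 fold change -0.94 ± 0.07, edgeR adjusted p = 6.14e-08), with FOXL2WT in between and apart from both. CMPK2, a mitochondrial nucleotide kinase whose gene overlaps RSAD2 in the annotation, was at 194, 194 and 207 CPM in Vectors, at 190, 182 and 176 in FOXL2WT and at 146, 135 and 143 in FOXL2C134W (-0.49 ± 0.04, edgeR adjusted p = 1.29e-06). ISG20, an exonuclease, was at 58.7, 66.7 and 61.0 CPM in Vectors, at 54.8, 55.3 and 55.9 in FOXL2WT and at 45.0, 40.4 and 43.2 in FOXL2C134W (-0.53 ± 0.07).

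In the group of ISG15 conjugation genes, 5 of 5 members were called lower in FOXL2C134W, though the call of HERC6 was lost with transcript length offsets. HERC5, the ligase that joins ISG15 to new proteins, was at 148, 137 and 150 CPM in Vectors, at 119, 126 and 117 in FOXL2WT and at 93.0, 95.8 and 103 in FOXL2C134W. It was at 95.1, 107 and 114 CPM in FOXL2WT + FOXO1 and at 99.7, 98.7 and 120 in FOXL2C134W + FOXO1, and its log2 fold change in FOXL2C134W against Vectors was -0.58 ± 0.07 (edgeR adjusted p = 3.52e-05). ISG15 itself was at 707, 795 and 828 CPM in Vectors, at 783, 769 and 738 in FOXL2WT and at 665, 584 and 608 in FOXL2C134W (-0.33 ± 0.07, edgeR adjusted p = 0.00345). UBE2L6, the enzyme that carries ISG15, was at 232, 242 and 249 CPM in Vectors, at 244, 241 and 241 in FOXL2WT and at 198, 181 and 189 in FOXL2C134W (-0.35 ± 0.04, edgeR adjusted p = 2.18e-05). For ISG15 and UBE2L6 the FOXL2WT libraries thus sat inside the Vectors range and the FOXL2C134W libraries lay under it. USP18, which removes ISG15 and dampens the receptor, fell by 0.36 ± 0.05 and HERC6 by 0.14 ± 0.04, and USP18 has a near-identical copy with which reads can be shared.

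Of the OAS and PKR group, which senses double-stranded RNA, 3 of 5 fell in FOXL2C134W. OASL, which has no synthetase activity and helps RNA sensing, was at 385, 391 and 406 CPM in Vectors, at 310, 310 and 322 in FOXL2WT and at 253, 242 and 259 in FOXL2C134W. It was at 307, 296 and 284 CPM in FOXL2WT + FOXO1 and at 265, 255 and 279 in FOXL2C134W + FOXO1. OASL was the member with the smallest adjusted p in this comparison (log2 fold change -0.65 ± 0.04, 2.11e-08 in edgeR's test), and both conditions with FOXL2WT lay above both with FOXL2C134W. OAS1 fell by 0.35 ± 0.04 and OAS2 by 0.25 ± 0.05. OAS3 did not pass the test, and EIF2AK2, which encodes the kinase PKR, had the highest value of all members (0.15 ± 0.07, edgeR adjusted p = 0.162).

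GBP2, a GTPase that coats pathogen membranes, was at 9.59, 11.0 and 9.76 CPM in Vectors, at 6.76, 5.64 and 6.54 in FOXL2WT and at 6.13, 6.18 and 8.43 in FOXL2C134W. It was at 7.47, 7.42 and 7.07 CPM in FOXL2WT + FOXO1 and at 6.05, 6.56 and 8.34 in FOXL2C134W + FOXO1, so that all 4 transfections lay under Vectors without overlap with it (FOXL2C134W -0.55 ± 0.13, edgeR adjusted p = 0.00657). MX1 and MX2, dynamin-like GTPases that trap viral nucleocapsids, fell by 0.19 ± 0.04 and 0.17 ± 0.04, and GBP1 did not pass. Among the interferon response factors IRF1 fell by 0.35 ± 0.05 and STAT2 by 0.26 ± 0.05, while IRF7 did not pass and IRF9 had a log2 fold change of 0.06 ± 0.06.

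Of the 5 membrane restriction factors, IFITM1 (-0.22 ± 0.05) and PLSCR1 (-0.20 ± 0.04) fell in FOXL2C134W. IFITM3, at 1287, 1356 and 1354 CPM in Vectors and at 1427, 1213 and 1270 in FOXL2C134W, did not pass the test (-0.03 ± 0.05, edgeR adjusted p = 0.768), nor did IFITM2 (-0.10 ± 0.05). The 3 IFITM genes share long stretches of sequence, so their estimated counts are uncertain relative to each other. IFI44, IFI27 and IFI35 fell by 0.34 ± 0.05, 0.24 ± 0.07 and 0.21 ± 0.06, and IFI44L (-0.07 ± 0.04) and IFI6 did not pass. DDX60 and SAMD9 fell by 0.25 ± 0.06 and 0.33 ± 0.10, PARP9 by 0.14 ± 0.04, and the ubiquitin ligases TRIM22 and TRIM21 by 0.37 ± 0.05 and 0.25 ± 0.05. TRIM25 (0.07 ± 0.04) and XAF1 (0.10 ± 0.08), with IRF9 and EIF2AK2, made up the 4 members above 0.

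Of the 33 calls in FOXL2C134W against Vectors, 19 held in every alternative analysis that gave an adjusted p and without each library in turn, among them NEURL3, CXCL10, CXCL11, IFIT2, RSAD2, OASL, HERC5, ISG20, CMPK2, UBE2L6 and ISG15. With the deposited transcript lengths as offsets in DESeq2, the calls of GBP2, TRIM22, STAT2, OAS2, MX1, MX2, DDX60, SAMD9, IFI35 and HERC6 were lost.

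**Figure D4:**
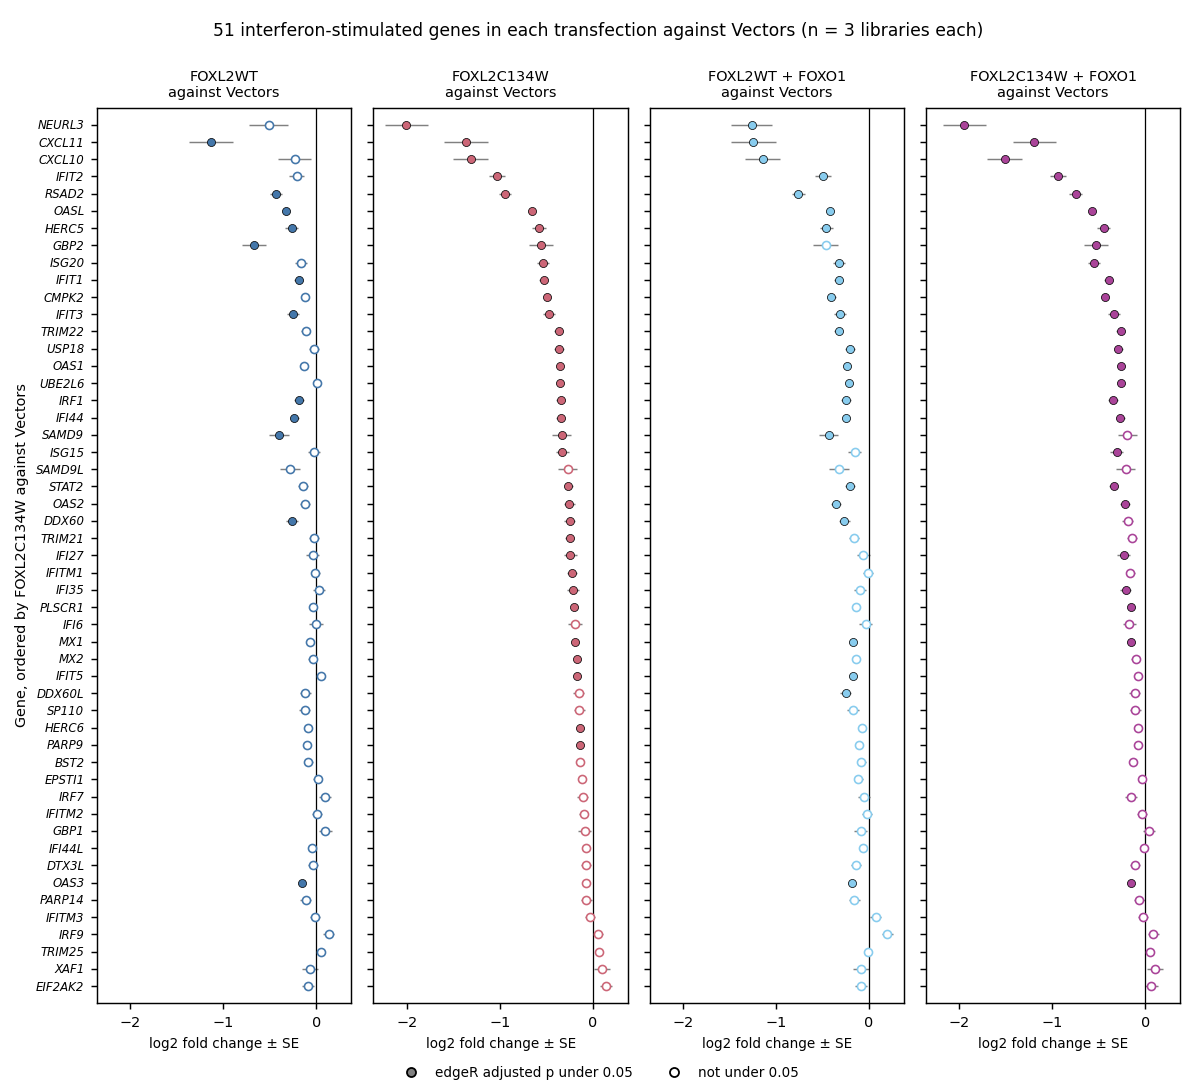
Log2 fold change ± SE of the 51 members in each transfection against Vectors, ordered by FOXL2C134W against Vectors, with filled points for an edgeR adjusted p under 0.05. Filled points number 12, 33, 25 and 26 from left to right, and every one of them lies left of 0.

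FOXL2WT against Vectors, which asks the same of the wild type factor with SMAD3, gave smaller and fewer changes. By the same test 12 members were lower and 0 were higher, and 3.61% of all genes were lower. The libraries did not overlap, with FOXL2WT lower, for 30 members, against 15.9% of all genes, and the members' median log2 fold change was -0.10. CXCL11 was 2.20-fold lower (log2 fold change -1.14 ± 0.24, edgeR adjusted p = 0.00788), GBP2 fell by 0.67 ± 0.13, RSAD2 by 0.43 ± 0.07 and OASL by 0.33 ± 0.04. SAMD9, at 110, 104 and 112 CPM in Vectors and at 81.5, 78.6 and 86.4 in FOXL2WT, fell by 0.40 ± 0.10. HERC5, DDX60, IFIT3, IFI44, IFIT1, IRF1 and OAS3 fell by 0.26 to 0.15. ISG15 (-0.02 ± 0.07), IFIT2 (-0.21 ± 0.09, edgeR adjusted p = 0.159), CXCL10 (-0.23 ± 0.18), NEURL3 (-0.51 ± 0.21) and CMPK2 (-0.12 ± 0.04) did not pass.

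These counts depended on single libraries and on the fit. Without replicate A or C of Vectors 6 members were called, and without replicate A or B of FOXL2WT 4 and 5 were. OASL, RSAD2 and IFI44 were the 3 calls that held in every alternative and without each library, and the calls of SAMD9, HERC5, DDX60, IFIT3, IFIT1, IRF1, OAS3, CXCL11 and GBP2 did not.

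FOXL2C134W against FOXL2WT compares the mutant with the wild type factor directly. Of the 51 members 20 were lower in FOXL2C134W and 1 was higher, against 4.12% and 7.13% of all genes, and the members' median log2 fold change was -0.16 beside -0.012 for all genes. NEURL3 (2.81-fold lower, log2 fold change -1.49 ± 0.24, edgeR adjusted p = 0.000721), CXCL10 (2.11-fold, -1.08 ± 0.19, edgeR adjusted p = 0.00144) and IFIT2 (1.76-fold, -0.81 ± 0.09, edgeR adjusted p = 1.52e-05) were lowest. RSAD2 fell by 0.51 ± 0.07, CMPK2 and ISG20 by 0.37 each, UBE2L6 by 0.36 ± 0.04, and IFIT1 and USP18 by 0.34 each. The ISG15 pathway (4 of 5), the IFIT family (4 of 4) and the nucleotide and RNA enzymes (3 of 3) held most of the calls, and the GTPases, the interferon response factors and the DDX60 and SAMD9 families held 0 of 4 each. The 1 member that was higher was EIF2AK2, at 319, 384 and 401 CPM in FOXL2C134W and at 313, 313 and 312 in FOXL2WT (0.23 ± 0.07, edgeR adjusted p = 0.0297). Its FOXL2C134W libraries were spread widely, and it was called in 1 of 6 fits that left out a library. CXCL11 and GBP2, both called in FOXL2WT against Vectors, did not pass between the FOXL2 forms. Without replicate B of FOXL2C134W 13 members were called in place of 21, and 12 of the 21 calls held in every alternative and without each library. FOXL2 and SMAD3 transcripts were 3.81-fold and 3.28-fold lower in FOXL2C134W than in FOXL2WT, and their part in this comparison was not tested.

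FOXL2WT + FOXO1 against Vectors gave 25 members lower and 0 higher, against 2.37% of all genes lower. The libraries did not overlap, with FOXL2WT + FOXO1 lower, for 37 members, against 11.8% of all genes, and the members' median log2 fold change was -0.17. NEURL3 (2.39-fold lower, log2 fold change -1.26 ± 0.22), CXCL11 (2.37-fold, -1.25 ± 0.24) and CXCL10 (2.21-fold, -1.15 ± 0.19) fell the most, followed by RSAD2 (-0.76 ± 0.07), IFIT2 (-0.50 ± 0.09), HERC5 (-0.46 ± 0.07), SAMD9 (-0.43 ± 0.10) and OASL (-0.42 ± 0.04). All 4 IFIT members and all 3 nucleotide and RNA enzymes were called, and 0 of the 5 membrane restriction factors. Without replicate C of Vectors 16 members were called, and 11 calls held in every alternative and without each library. Of the members given with values here, NEURL3, CXCL10, RSAD2, IFIT2, HERC5 and OASL were among these 11, and CXCL11 and SAMD9 were not.

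FOXL2C134W + FOXO1 against Vectors gave 26 members lower and 0 higher, against 5.16% of all genes lower. For 33 members the libraries did not overlap with FOXL2C134W + FOXO1 lower, against 14.2% of all genes, and the members' median log2 fold change was -0.19. NEURL3 (3.86-fold lower, -1.95 ± 0.23), CXCL10 (2.85-fold, -1.51 ± 0.19), CXCL11 (2.29-fold, -1.20 ± 0.23) and IFIT2 (1.92-fold, -0.94 ± 0.09) led, followed by RSAD2 (-0.75 ± 0.07), OASL (-0.57 ± 0.04), ISG20 (-0.55 ± 0.07) and GBP2 (-0.53 ± 0.13). The call of GBP2 was lost with transcript length offsets and without replicate B of Vectors or replicate A of FOXL2C134W + FOXO1. All 4 comparisons with Vectors share the same 3 control libraries, so their common direction is not independent. CD68, a lysosomal protein abundant in macrophages, was also lower than in Vectors in all 4, with log2 fold changes of -0.22 ± 0.05, -0.25 ± 0.05, -0.27 ± 0.05 and -0.24 ± 0.05 in FOXL2WT, FOXL2C134W, FOXL2WT + FOXO1 and FOXL2C134W + FOXO1. TYROBP was at 0 in every library, PTPRC and CD3E did not exceed 0.247 and 0.0671 CPM, and the part of CD68 in these results was not tested.

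The FOXO1 plasmid was added to each FOXL2 form, and most members had lower values with it beside FOXL2WT and higher values with it beside FOXL2C134W, though few or none passed the test in either pair. FOXL2WT + FOXO1 against FOXL2WT gave 1 member called by edgeR, CMPK2 (log2 fold change -0.28 ± 0.05, adjusted p = 0.0216), against 0.0505% of all genes called in either direction. The median log2 fold change was -0.10, 44 of 51 members were below 0 beside 49.9% of all genes, and 22 had an unadjusted p under 0.05 beside 9.13% of all genes. The libraries did not overlap, with FOXL2WT + FOXO1 lower, for 21 members, against 7.56% of all genes. CXCL10 (-0.91 ± 0.20, edgeR adjusted p = 0.137), NEURL3 (-0.75 ± 0.23, 0.34) and RSAD2 (-0.33 ± 0.07, 0.103) had the lowest values and did not pass. DESeq2 called 6 members, and its share of all genes called is not given. The single call of CMPK2 was lost without replicate A or B of FOXL2WT and without any 1 replicate of FOXL2WT + FOXO1, and the count was 0 without replicate A or B of FOXL2WT and without replicate B or C of FOXL2WT + FOXO1.

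FOXL2C134W + FOXO1 against FOXL2C134W gave 0 members called by edgeR, and 0.714% of all genes were called in either direction. At an unadjusted p under 0.05 there were 6 members, a share near the 11.2% of all genes. Here the median log2 fold change was 0.06, 41 of 51 members were above 0, and 3 had libraries that did not overlap with FOXL2C134W + FOXO1 higher, against 6.23% of all genes. DESeq2 called 0 members and, without a filter on low counts, edgeR called 2, again without a share of all genes for these fits. RSAD2 had the highest value of the 51 members, a log2 fold change of 0.19 ± 0.07, and UBE2L6 had 0.09 ± 0.04. The 95% interval of RSAD2, 0.05 to 0.33, is not adjusted for the number of genes, and neither gene passed the test.

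The difference between these FOXO1 effects, tested as an interaction, passed for 5 members, all in the direction of a higher value in FOXL2C134W, against 0.137% of all genes in that direction. The interaction was 0.52 ± 0.10 for RSAD2 (edgeR adjusted p = 0.0125), 0.34 ± 0.06 for CMPK2 (0.0127), 0.31 ± 0.06 for UBE2L6 (0.0129), 0.31 ± 0.06 for IFIT5 (0.0167) and 0.31 ± 0.07 for TRIM22 (0.0359). The libraries of RSAD2, IFIT5 and UBE2L6 are given as a description, because these genes were picked by the same test. RSAD2 went from 154, 150 and 148 CPM in FOXL2WT to 113, 122 and 124 with FOXO1, and from 102, 99.4 and 116 in FOXL2C134W to 115, 112 and 135. IFIT5 went from 216, 229 and 210 CPM to 182, 189 and 193 in the wild type pair and from 187, 189 and 188 to 202, 191 and 209 in the mutant pair. UBE2L6 went from 244, 241 and 241 CPM to 218, 203 and 200 and from 198, 181 and 189 to 200, 199 and 204. In each case the wild type pair did not overlap, with the FOXO1 libraries lower. The mutant pair started from a lower level, and its libraries overlapped for RSAD2 and lay just apart, with the FOXO1 libraries higher, for IFIT5 and UBE2L6. Over the 51 members the median interaction was 0.14 beside 0.0071 for all genes, and 45 were above 0. The call of RSAD2 held in every alternative and without each library, whereas 1 member was called without replicate B of FOXL2WT + FOXO1 and 3 without replicate B of FOXL2WT or replicate A of FOXL2C134W + FOXO1. FOXO1 transcripts were 2.72-fold lower in FOXL2C134W + FOXO1 than in FOXL2WT + FOXO1, so the FOXO1 transcript level and the FOXL2 form cannot be told apart here. SMAD3 transcripts were 2.86-fold lower in FOXL2WT + FOXO1 than in FOXL2WT and 2.15-fold lower in FOXL2C134W + FOXO1 than in FOXL2C134W.

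**Figure D5:**
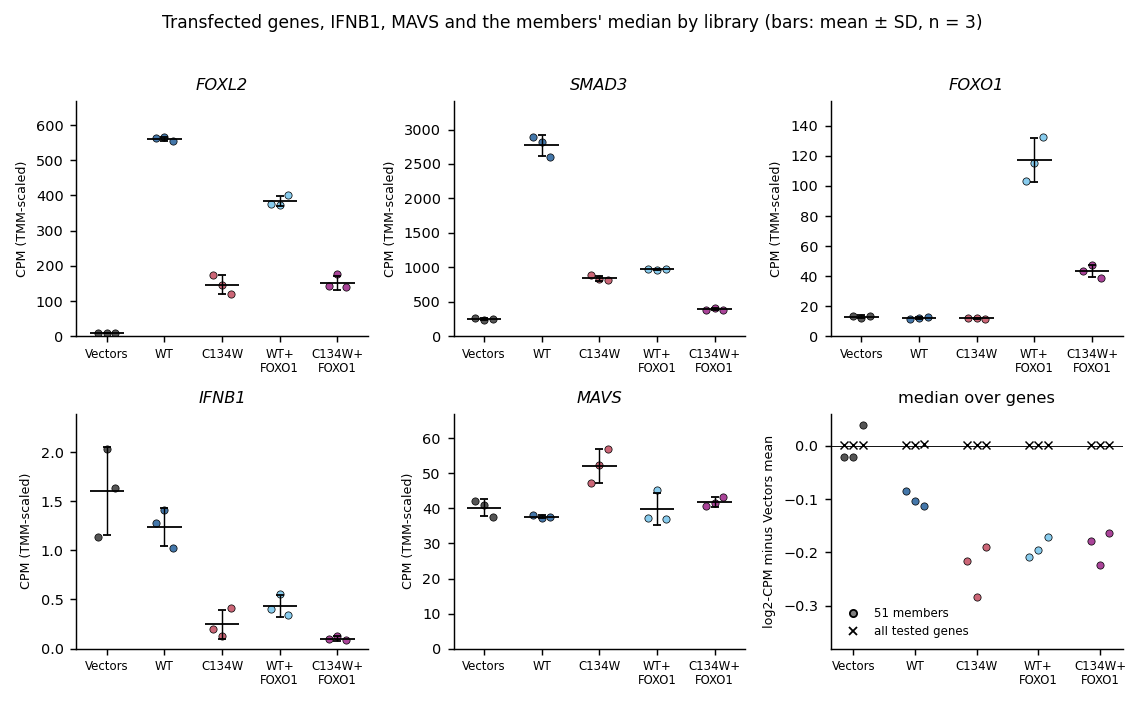
The upper panels give TMM-scaled CPM of the transfected genes FOXL2, SMAD3 and FOXO1 and the lower ones IFNB1, MAVS and, at right, the median difference from the Vectors mean over the 51 members (points) and over all genes tested (crosses) in each library. Points in the gene panels are libraries and bars the mean ± SD (n = 3). SMAD3 and FOXL2 are highest in FOXL2WT, where the members' median lies between -0.11 and -0.08, and the 9 libraries of the other transfections lie at or below -0.16.

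With FOXO1 in both conditions, no member passed the edgeR test between the FOXL2 forms. FOXL2C134W + FOXO1 against FOXL2WT + FOXO1 gave 0 members called by edgeR, against 0.144% of all genes called in either direction, and 14 had an unadjusted p under 0.05, beside 13.5% of all genes. DESeq2 called 2 and edgeR without a filter on low counts 7, and the shares of all genes called by these fits are not given. The median log2 fold change was -0.01, and 26 members were below 0 and 25 above. IFIT2 was nearest to the threshold (-0.44 ± 0.09, 95% interval -0.62 to -0.26, edgeR adjusted p = 0.0508), and NEURL3 had a value of -0.69 ± 0.26. A missed threshold does not show that the conditions were alike. Leaving out replicate A of FOXL2WT + FOXO1 or replicate C of FOXL2C134W + FOXO1 gave 1 call each.

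The crossed comparisons fell in between. FOXL2C134W + FOXO1 was lower than FOXL2WT for 11 members and higher for 0, against 1.00% of all genes lower, with NEURL3 (2.71-fold lower, -1.44 ± 0.24), CXCL10 (2.43-fold, -1.28 ± 0.20), IFIT2 (-0.72 ± 0.09), ISG20 (-0.38 ± 0.07), RSAD2 (-0.32 ± 0.07), CMPK2 (-0.31 ± 0.04), ISG15 (-0.28 ± 0.07), UBE2L6 (-0.27 ± 0.04) and USP18, OASL and IFIT1 making up the rest. Without replicate A or B of FOXL2WT 7 were called. The calls of RSAD2, ISG15, USP18 and IFIT1 did not hold in every alternative and without each library. FOXL2WT + FOXO1 was higher than FOXL2C134W for 4 members, against 1.31% of all genes higher, namely IFIT2 (0.53 ± 0.09), OASL (0.23 ± 0.04), IFITM1 (0.21 ± 0.05, with libraries that overlapped) and IFIT1 (0.20 ± 0.05). IFIT2 alone of these held in every alternative and without each library. The count was 10 without replicate A of FOXL2C134W, 1 without its replicate B and 2 without replicate A or C of FOXL2WT + FOXO1.

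The rest of the interferon pathway was followed in a list of 41 genes found in the table, of which 33 were tested. Against Vectors, 11 of the 33 were lower in FOXL2C134W, beside 7.24% of all genes. MAVS and PTPN11 were higher there, and the share of all genes called higher in that comparison is not given. In FOXL2WT 1 of 33 was lower, a share near the 3.61% of all genes. In FOXL2WT + FOXO1 and in FOXL2C134W + FOXO1 5 of 33 were lower, beside 2.37% and 5.16% of all genes. Between the FOXL2 forms, 6 of the 33 were lower in FOXL2C134W than in FOXL2WT and 2 were higher, beside 4.12% and 7.13% of all genes. IFNA1, IFNA2, IFNK and IFNG had no counts in any library. IFNE, IFNL1, IFNL2 and IFNL3 had few counts and were not tested, with IFNL1 at 1 to 21 counts per library. IFNB1, a type I interferon that many non-immune cells can make, held 26, 41 and 41 counts in Vectors, 24, 21 and 24 in FOXL2WT and 5, 3 and 9 in FOXL2C134W. It held 6, 12 and 7 counts in FOXL2WT + FOXO1 and 2, 3 and 2 in FOXL2C134W + FOXO1, where all libraries were at or under the floor of 3 counts. It was lower in FOXL2C134W than in Vectors (log2 fold change -2.70 ± 0.38, edgeR adjusted p = 0.000104) and than in FOXL2WT (-2.32 ± 0.40, edgeR adjusted p = 0.00104), and it also passed against Vectors in both FOXO1 conditions. Vectors and FOXL2WT lay above the other 3 conditions without overlap.

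Among the sensors of nucleic acid and their adaptors, every gene called in FOXL2C134W against Vectors was lower except MAVS. STING1, the adaptor of cytosolic DNA sensing, was at 77.3, 76.3 and 75.5 CPM in Vectors, at 58.1, 61.4 and 63.9 in FOXL2WT and at 56.2, 51.8 and 58.6 in FOXL2C134W, and fell in both (-0.32 ± 0.05 and -0.46 ± 0.05). The RNA helicases DDX58 (RIG-I), IFIH1 (MDA5) and DHX58 (LGP2) fell in FOXL2C134W by 0.24 ± 0.05, 0.29 ± 0.07 and 0.41 ± 0.06 and TLR3 by 0.33 ± 0.06. MAVS, the adaptor of RIG-I and MDA5, instead rose, from 42.0, 41.1 and 37.4 CPM in Vectors to 47.3, 52.4 and 56.9 in FOXL2C134W (0.38 ± 0.07, edgeR adjusted p = 0.00216), and was also higher there than in FOXL2WT (0.47 ± 0.08). Of the receptor genes, the gamma interferon receptor subunits IFNGR1 and IFNGR2 fell in FOXL2C134W by 0.24 ± 0.06 and 0.21 ± 0.04. UBA7, the enzyme that activates ISG15, fell by 0.29 ± 0.06 and the kinase IKBKE by 0.20 ± 0.05, while the phosphatase PTPN11 rose by 0.21 ± 0.05. DDX58 was the 1 gene of the list with an interaction that passed (0.33 ± 0.08, edgeR adjusted p = 0.0415), and it was called in 3 of the 12 fits that each left out 1 library.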

How the data were processed

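The study transfected the human granulosa cell line HGrC1 with 5 plasmid combinations, 3 libraries each (stranded mRNA, 75-bp single-end reads). The authors quantified reads with salmon 1.1.0 on hg38 transcripts and deposited estimated counts per gene, stored as whole numbers, and TPM per transcript for each library. The members and gene lists were chosen with earlier results of these data known.

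Of 37787 genes, 13868 passed the edgeR filter on low counts, all 51 members among them. edgeR's quasi-likelihood test (edgeR 4.0.16, R 4.3.3, TMM scaling) was fitted to all 15 libraries, with Benjamini-Hochberg adjustment over all genes tested and a threshold of 0.05. Errors of log2 fold changes are standard errors. Deposited TPM values were summed over a gene's transcripts and used only to compare levels between genes. Values were given for at most 8 called members per comparison, those with the largest absolute log2 fold change, and for the transfected genes, and called genes of the pathway list could be named. Any further member given with values was chosen after its values were seen. Alternatives were DESeq2 1.42.0, with and without transcript length offsets, its size factors in edgeR, other filters on low counts, fits of the compared conditions alone, a replicate block and leaving out each library. Promoters come from RefSeq and gene positions from GENCODE 44. Reads shared by IFITM1, IFITM2 and IFITM3, and by USP18 and its copies, make those values less certain. The overlapping pairs PARP9 with DTX3L and CMPK2 with RSAD2 lie on opposite strands, and the libraries were stranded. Whether reads in those overlaps were assigned by strand was not checked. Nothing in the labels says that the 3 libraries were separate cultures, so p-values measure the spread between these libraries, which may be technical. The values of 1 gene of the pathway list are not reported here.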

Additional observations from a re-analysis of the deposited data

Results flagged for a closer look

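The effect of the FOXO1 plasmid differed between the FOXL2 forms, by the test of the interaction itself in edgeR, for 5 members and 1 pathway gene. The log2 interaction, FOXO1 effect with FOXL2C134W minus FOXO1 effect with FOXL2WT, was 0.52 for RSAD2, 0.34 for CMPK2, 0.31 for UBE2L6, 0.31 for IFIT5, 0.31 for TRIM22 and 0.33 for DDX58. In all 6 the FOXL2WT pair had the lower value with FOXO1. The transcripts of FOXO1 (interaction -1.41), SMAD3 (0.41) and FOXL2 (0.60) differed in the same contrast, and their part in these results was not tested. No group had the 4 samples that a search for single outlying libraries needs.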

How the results depend on the processing

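For FOXL2C134W, FOXL2WT + FOXO1 and FOXL2C134W + FOXO1 against Vectors and for FOXL2C134W against FOXL2WT, the number of members called stayed within 1.5 times the reported number in every alternative that kept all libraries. With DESeq2 the number called was 2 for FOXL2C134W + FOXO1 against FOXL2WT + FOXO1, 6 for FOXL2WT + FOXO1 against FOXL2WT, 8 for FOXL2WT + FOXO1 against FOXL2C134W and 8 for the interaction. With transcript length offsets it was 4 for FOXL2WT against Vectors and, in the first 3 of those comparisons, 1, 2 and 2. Without a filter on low counts it was 7, 11, 13 and 12 in those 4, 2 for FOXL2C134W + FOXO1 against FOXL2C134W and 21 for FOXL2C134W + FOXO1 against FOXL2WT. With at least 10 counts in every library it was 1 for FOXL2C134W + FOXO1 against FOXL2WT + FOXO1 and 2 for FOXL2WT + FOXO1 against FOXL2WT, and DESeq2 size factors in edgeR gave 1 for the former. Fits of the compared conditions alone gave 20 for FOXL2WT against Vectors, 2 for FOXL2WT + FOXO1 against FOXL2WT and 1 for FOXL2WT + FOXO1 against FOXL2C134W. The cause of these changes was not tested. For the alternatives, the fits that left out 1 library and the replicate block, the shares of all genes called are not given. Their counts therefore describe the members only.

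Leaving out 1 library gave 4 to 10 calls for FOXL2WT, 26 to 34 for FOXL2C134W, 16 to 22 for FOXL2WT + FOXO1 and 19 to 25 for FOXL2C134W + FOXO1, each against Vectors. It gave 13 to 24 for FOXL2C134W against FOXL2WT, 7 to 10 for FOXL2C134W + FOXO1 against FOXL2WT, 1 to 10 for FOXL2WT + FOXO1 against FOXL2C134W, 1 to 7 for the interaction, and 0 to 1 for FOXL2C134W + FOXO1 against FOXL2WT + FOXO1, for FOXL2WT + FOXO1 against FOXL2WT and for FOXL2C134W + FOXO1 against FOXL2C134W. The log2 fold change changed sign for 3 uncalled values, CMPK2 in FOXL2C134W + FOXO1 against FOXL2C134W (-0.0097 with length offsets), IFITM3 in FOXL2C134W against Vectors (0.0239 without replicate B of FOXL2C134W, with a range from -0.0958 over the libraries left out) and ISG15 in FOXL2WT against Vectors (0.0236 without replicate C of Vectors, with a range from -0.0884).

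The replicate letters did not pair the libraries: deviations of same-letter libraries had correlations of -0.164 to 0.166, and 2 of 30 pairs were over 0.1. With a replicate block 12, 36, 28 and 28 members were called against Vectors, in the order above, 27 in FOXL2C134W against FOXL2WT, 1 in FOXL2C134W + FOXO1 against FOXL2WT + FOXO1, 2 in FOXL2WT + FOXO1 against FOXL2WT, 0 in FOXL2C134W + FOXO1 against FOXL2C134W, 12 in FOXL2C134W + FOXO1 against FOXL2WT, 5 in FOXL2WT + FOXO1 against FOXL2C134W and 6 for the interaction, and 5 libraries correlated best with their own letter. Depth limits IFNB1, NEURL3, CXCL10 and CXCL11, which had few counts.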
